A study of Homo sapiens with 6 samples.

Results

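The genes described here are 38 human genes of the endoplasmic reticulum (ER), the compartment in which secreted and membrane proteins are folded: chaperones, disulfide enzymes, factors of ER-associated degradation, parts of the import and export machinery, and the sensors and transcription factors of the unfolded protein response. They were chosen by symbol from what they are known to do, with earlier results of these data known, and all 38 were found among the 60708 gene identifiers counted. The study compared 2 groups of 3 RNA sequencing libraries from wild-type U2OS cells, an established human osteosarcoma line. Cells of the control group (DMSO) received the solvent, and cells of the other group (PARGi) received 25 µM of PDD00017273, an inhibitor of poly(ADP-ribose) glycohydrolase (PARG), both for 4 days. The labels name no clone, passage or shared culture for a replicate number, so p-values measure the spread between these libraries. RNA was measured in bulk, so a change in cell number or in RNA per cell cannot be told apart for any transcript.

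Proteins that enter the ER are held by chaperones, receive disulfide bonds and sugar chains, and either leave in transport vesicles or, when they fail to fold, are drawn back into the cytosol and degraded by the proteasome. When unfolded proteins build up, the sensors IRE1 (gene ERN1), PERK (EIF2AK3) and ATF6 are activated. IRE1 splices the XBP1 transcript, ATF6 is cut to release a transcription factor, and PERK phosphorylates a translation factor, which favours translation of ATF4. Spliced XBP1 and cut ATF6 raise transcription of chaperone and degradation genes. Splicing, cutting and phosphorylation are not visible in counts per gene, so what follows concerns transcript amounts alone.

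Transcripts of the ER genes were slightly more abundant in PARGi. Of the 38 genes, 37 had enough counts to be tested, and 16 of these were higher in PARGi and 0 were lower at an adjusted p under 0.05 (edgeR's quasi-likelihood test, Benjamini-Hochberg adjustment over 20409 tested genes). Over all tested genes 24.3% were called, 13.2% higher and 11.0% lower. The changes were small: only HERPUD1 and MANF passed with at least a 1.2-fold rise, 2 of 37 against 3.36% of all tested genes. In 26 of the 37 genes all 3 PARGi libraries lay above all 3 DMSO libraries, and in 1 gene, SEC61B, all 3 lay below; over all tested genes these shares were 19.8% and 18.2%. The median log2 fold change of the 37 genes was 0.076 (a log2 fold change of 1 is a doubling), against -0.0070 over all tested genes. At an unadjusted p under 0.05 in the same test, 1 of the 37 genes was lower, and over all tested genes 16.6% were lower by that measure. DESeq2 and limma-voom likewise called 0 of the genes lower.

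Small changes pass the test more readily in genes with many reads, and most ER genes were abundant. Of the 37 tested ER genes, 35 had a mean CPM (counts scaled to library size, adjusted by the trimmed mean of M-values, TMM) of at least 10, and all 16 calls were among them. Of all tested genes with at least 10 CPM, 22.1% were higher and 13.6% were lower. For higher calls the background for abundant genes thus lay nearer to the share seen here. For lower calls it lay further from the 0 seen here. That split by abundance was chosen after the values were seen. Together the 38 genes took 0.860% to 0.867% of the counts in the DMSO libraries and 0.894% to 0.902% in the PARGi libraries. In a single library, the median deviation of the tested ER genes from their DMSO mean was 0.071, 0.087 and 0.071 on the log2 scale in PARGi replicates 1, 2 and 3, and between -0.0078 and 0.0080 in the DMSO libraries.

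**Figure D1:**
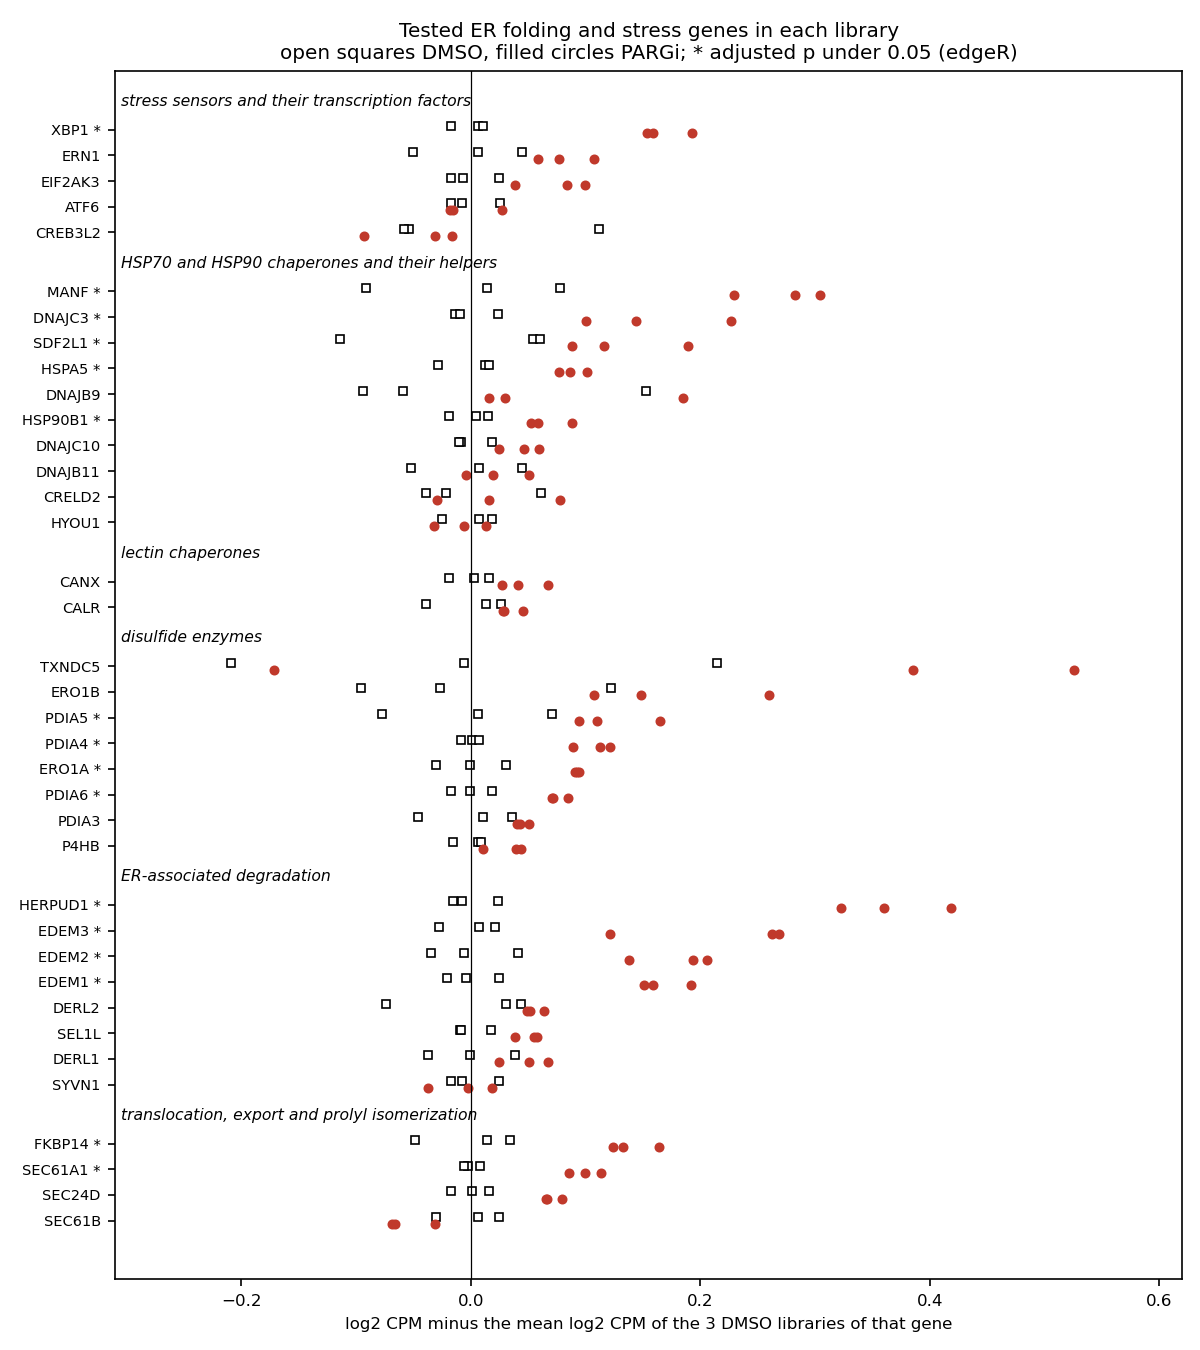
Each row is a tested ER gene, ordered within its role by fold change; the x axis is the log2 CPM of a library minus the gene's mean log2 CPM over the 3 DMSO libraries. Open squares are DMSO and filled circles PARGi libraries, and a star marks an adjusted p under 0.05: the circles of HERPUD1, MANF and the EDEM genes stand clear of the squares, while those of ATF6, HYOU1 and SYVN1 lie among them.

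Total counts ran from 60286931 to 80605145 per library, and TMM factors from 0.9953 to 1.007. All 8 mesenchymal and osteosarcoma markers exceeded 1 CPM in every library, but 4 of them were lower in PARGi and 0 higher by edgeR. Of all tested genes 11.0% were lower and 13.2% higher, and of those with at least 10 CPM 13.6% and 22.1%. Among the 4 lower markers, RUNX2 went from 83.3 ± 1.14 to 69.0 ± 0.606 CPM (log2 fold change -0.27), COL1A2 from 13.0 ± 1.38 to 7.41 ± 0.685 CPM (-0.80), and SPARC from 1677 ± 17.1 to 1583 ± 10.9 CPM (-0.083). COL1A1, VIM, FN1 and CDH2 did not pass. These markers moved along with the ER genes, and their part in the ER genes' change was not tested. The summed level of the 8, most of it COL1A1 and VIM, was 10020 to 10810 CPM in DMSO and 10110 to 10200 CPM in PARGi. Summed levels of 4 markers each of epithelial, blood and endothelial cells stayed between 1.196 and 5.877 CPM in every library, and the ranges of the groups overlapped. Among these, CDH1 was higher (0.718 to 1.14 CPM) and KDR lower (0.472 to 0.279 CPM). PARG, the target of the inhibitor, gave 44.0 ± 1.05 CPM with DMSO against 45.5 ± 0.773 CPM with PARGi (SD, n = 3 each); the inhibitor acts on the protein, so this does not check the treatment.

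The gene with the largest change among the 37 tested was HERPUD1, which encodes an ER membrane protein with a ubiquitin-like domain that helps to assemble the HRD1 degradation complex. HERPUD1 (ENSG00000051108.15, plus strand of chromosome 16, 56932048 to 56944863 in GENCODE 29 on GRCh38) measured 94.1, 92.1 and 91.6 CPM in DMSO replicates 1, 2 and 3 and 116, 119 and 124 CPM in PARGi replicates 1, 2 and 3. Every PARGi library was above every DMSO library by a wide margin compared with the spread inside either group. The log2 fold change was 0.37 (SE 0.028, 95% confidence interval 0.31 to 0.43, edgeR adjusted p = 8.42e-10), a rise of 29.1%. Even so, in 13.4% of all tested genes the fold change was further from 0 on the log2 scale.

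The EDEM genes rose as well. Their products are mannosidase-like proteins that trim or recognise the sugar chains of misfolded glycoproteins and pass them on for degradation. EDEM1 measured 142, 147 and 144 CPM in DMSO and 165, 160 and 161 CPM in PARGi (by edgeR a log2 fold change of 0.17 with an SE of 0.025, adjusted p = 2.70e-05). EDEM2 went from 43.8 ± 1.16 to 49.6 ± 1.23 CPM (edgeR log2 fold change 0.18 with an SE of 0.033, adjusted p = 0.000240). EDEM3 went from 23.1 ± 0.397 to 26.8 ± 1.53 CPM (edgeR log2 fold change 0.22 with an SE of 0.043, adjusted p = 0.000612; SD, n = 3 per group). Within each of the 3 genes, no DMSO library reached the lowest PARGi library.

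The core of the retrotranslocation machinery did not pass the test. SYVN1, the ubiquitin ligase HRD1 itself, measured 40.9, 41.2 and 42.1 CPM in DMSO and 41.4, 42.0 and 40.4 CPM in PARGi, so the groups overlapped fully. Its 95% confidence interval on the log2 scale ran from -0.075 to 0.060. SEL1L, the partner that holds HRD1 in place, had a log2 fold change of 0.051 (interval -0.00010 to 0.10), DERL1 one of 0.047 (-0.0064 to 0.10) and DERL2 one of 0.055 (-0.018 to 0.13). The derlins form part of the passage out of the ER. SYVN1 shares exon sequence with FAU on its strand (7.24% of its exon bases), so some of its reads may be divided. DERL3 had 0 to 5 counts per library and was not tested; 77.0% of its exon bases lie opposite exons of SMARCB1, a gene at 189 ± 3.44 CPM in DMSO. In all, 4 of the 8 tested degradation genes were higher and 0 lower, against 22.1% and 13.6% of all tested genes with at least 10 CPM.

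Among the chaperones and their helpers 5 of 10 were higher and 0 lower, against 22.1% and 13.6% of all tested genes with at least 10 CPM. MANF, a small ER protein that binds the chaperone BiP and can be secreted as a trophic factor, showed the second-largest called change of the ER genes. MANF (ENSG00000145050.19, plus strand of chromosome 3, 51385047 to 51389397) measured 86.3, 80.2 and 90.2 CPM in DMSO and 100, 106 and 104 CPM in PARGi. Its DMSO libraries were spread more widely than those of HERPUD1, but the lowest PARGi value still exceeded the highest DMSO value. The log2 fold change was 0.27 (SE 0.034, interval 0.20 to 0.34, edgeR adjusted p = 2.01e-06), a rise of 20.6%. DNAJC3, a J-domain partner of BiP, measured 39.3, 38.3 and 38.4 CPM in DMSO and 41.5, 42.7 and 45.3 CPM in PARGi (by edgeR a log2 fold change of 0.16 with an SE of 0.035, adjusted p = 0.00166).

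HSPA5 encodes BiP, the HSP70 of the ER and the usual readout of ER stress. It measured 705, 707 and 685 CPM in DMSO and 750, 742 and 737 CPM in PARGi. The groups did not overlap, yet the rise was only 6.31%, with an interval from 2.83% to 9.90% (edgeR log2 fold change 0.088 with an SE of 0.023, adjusted p = 0.00670). With upper-quartile scaling HSPA5 lost its call (edgeR log2 fold change 0.063, adjusted p = 0.0639). HSP90B1, the HSP90 of the ER, went from 952 ± 11.7 to 997 ± 13.0 CPM (SD, n = 3 each), an edgeR log2 fold change of 0.066 with an SE of 0.023 (adjusted p = 0.0360). That call was fragile, being lost in 9 of 16 alternative settings, 5 of them the removal of a library. The log2 fold change was 0.066 without DMSO replicate 1, 0.056 without DMSO replicate 3, and 0.073, 0.056 and 0.071 without PARGi replicates 1, 2 and 3. SDF2L1, part of a complex with BiP and DNAJB11, went from 50.9 ± 3.42 to 55.7 ± 2.04 CPM (edgeR log2 fold change 0.13 with an SE of 0.039, adjusted p = 0.0197). It lost its call without DMSO replicate 2 (0.073), PARGi replicate 1 (0.099) or PARGi replicate 2 (0.14).

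The other chaperone genes did not pass. HYOU1, the large HSP70-like exchange factor of BiP, measured 278, 269 and 275 CPM in DMSO and 277, 273 and 268 CPM in PARGi. These values overlapped fully, and the interval of the log2 fold change, from -0.060 to 0.042, excludes a rise of the size seen for HERPUD1 or MANF. CRELD2, an ER protein with disulfide isomerase activity, was at 88.4 ± 3.31 and 89.8 ± 3.36 CPM, and DNAJB11, a BiP cochaperone, at 83.0 ± 2.80 and 84.2 ± 1.62 CPM in DMSO and PARGi (SD, n = 3 each). DNAJB9, a cochaperone that represses IRE1, is the scarcest gene of this role, with 11.7 to 13.9 CPM in DMSO and 12.7 to 14.2 CPM in PARGi. DNAJC10, a J-domain disulfide reductase, had groups that did not overlap but a log2 fold change of only 0.044 (interval -0.0062 to 0.094). The fold changes of HYOU1, CRELD2 and DNAJB11 changed sign in some of the alternative settings.

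The lectin chaperones CALR (calreticulin) and CANX (calnexin) bind glycoproteins that carry a single remaining glucose. CALR, the most abundant ER gene per length, measured 1362, 1301 and 1349 CPM in DMSO and 1380, 1363 and 1364 CPM in PARGi. CANX measured 636, 630 and 621 CPM in DMSO and 641, 659 and 647 CPM in PARGi. In both genes all PARGi libraries lay above all DMSO libraries, by less than was needed to pass: the log2 fold changes were 0.034 (interval -0.014 to 0.082) and 0.045 (-0.0029 to 0.093).

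Of 8 genes for disulfide enzymes, 4 were higher and 0 lower. Of all tested genes with at least 10 CPM, 22.1% were higher and 13.6% lower. PDIA4, a disulfide isomerase with several thioredoxin-like domains, measured 344, 341 and 345 CPM in DMSO and 371, 373 and 365 CPM in PARGi (by edgeR a log2 fold change of 0.11 with an SE of 0.023, adjusted p = 0.00137). The replicates of DMSO differed by far less than the groups. ERO1A, the oxidase that recharges disulfide isomerases, measured 114, 111 and 116 CPM in DMSO and 121, 121 and 121 CPM in PARGi (by edgeR a log2 fold change of 0.092 with an SE of 0.026, adjusted p = 0.0112). PDIA6 went from 658 ± 8.11 to 693 ± 3.74 CPM (edgeR log2 fold change 0.076, adjusted p = 0.0172) and PDIA5 from 28.1 ± 1.44 to 30.6 ± 0.796 CPM (0.12, edgeR adjusted p = 0.0311; SD, n = 3 per group). PDIA4 kept its call in all 16 alternatives, while ERO1A, PDIA6 and PDIA5 lost theirs in 3, 4 and 6 of them. For PDIA6 these included the fits without PARGi replicate 2 (0.072) and without PARGi replicate 3 (0.079), and for PDIA5 those without DMSO replicate 1 (0.12), DMSO replicate 2 (0.084), PARGi replicate 1 (0.13) and PARGi replicate 3 (0.0995). PDIA5 shares 12.2% of its exon bases with SEC22A on the same strand, which was at 10.7 ± 0.424 CPM in DMSO.

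P4HB and PDIA3, the most abundant disulfide isomerases by CPM besides PDIA6, did not pass. P4HB, the classical protein disulfide isomerase, measured 884, 898 and 900 CPM in DMSO and 919, 921 and 901 CPM in PARGi. PDIA3, the isomerase that works with calnexin and calreticulin, measured 462, 470 and 444 CPM in DMSO and 471, 475 and 472 CPM in PARGi. PARGi lay above DMSO in each library of both genes, and the log2 fold changes were 0.031 (interval -0.016 to 0.078) and 0.044 (-0.0072 to 0.096). ERO1B, the second ER oxidase, was at 7.30 ± 0.570 and 8.21 ± 0.454 CPM (edgeR log2 fold change 0.17 with an SE of 0.069, adjusted p = 0.0822; SD, n = 3 each) and passed in a single alternative, without DMSO replicate 1 (0.23, edgeR adjusted p = 0.0369). TXNDC5 was at only 1.48 ± 0.218 and 1.78 ± 0.424 CPM, a value that cannot be read as its level: 60.6% of its exon bases also belong to the readthrough gene BLOC1S5-TXNDC5, listed at 0 in all 6 libraries, and reads in shared exons may have been left uncounted.

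The remaining machinery was mixed. SEC61A1, the pore-forming subunit of the protein channel into the ER, measured 447, 444 and 443 CPM in DMSO and 476, 481 and 472 CPM in PARGi (by edgeR a log2 fold change of 0.0995 with an SE of 0.023, adjusted p = 0.00245). SEC61B, the small subunit of the same channel, measured 118, 117 and 114 CPM in DMSO and 114, 111 and 111 CPM in PARGi. It was the only one of the 37 genes whose PARGi libraries all lay below its DMSO libraries, though the closest pair differed by just 0.1 CPM (113.9 and 113.8). Its log2 fold change of -0.056 (SE 0.026, edgeR adjusted p = 0.1304) did not pass, but it passed as lower with upper-quartile scaling (-0.081, edgeR adjusted p = 0.0315) and without DMSO replicate 3 (-0.073, edgeR adjusted p = 0.0484), and it was slightly positive with an offset for GC content and length (0.0034). FKBP14, a prolyl isomerase that acts on collagens, went from 51.8 ± 1.54 to 57.1 ± 0.841 CPM (SD, n = 3 each; edgeR log2 fold change 0.14 with an SE of 0.031, adjusted p = 0.00147). SEC24D, a cargo-binding subunit of the COPII vesicle coat, measured 37.4, 36.9 and 37.8 CPM in DMSO and 39.1, 39.1 and 39.5 CPM in PARGi, and its log2 fold change of 0.070 did not pass (edgeR adjusted p = 0.123).

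Among the sensors and transcription factors XBP1 alone passed. XBP1 (ENSG00000100219.16, minus strand of chromosome 22, 28794555 to 28800597) measured 83.9, 84.1 and 82.5 CPM in DMSO and 95.5, 92.9 and 93.2 CPM in PARGi. Both groups were tight and well apart, and the log2 fold change was 0.17 (SE 0.026, edgeR adjusted p = 4.16e-05), a rise of 12.4%. Counts per gene do not separate its spliced from its unspliced form. ATF6 measured 80.7, 82.6 and 80.2 CPM in DMSO and 80.2, 82.7 and 80.3 CPM in PARGi, with a log2 fold change of -0.0017 (interval -0.058 to 0.055), whose sign changed in 5 of 16 alternatives. ERN1 measured 17.0, 15.9 and 16.5 CPM in DMSO and 17.4, 17.1 and 17.7 CPM in PARGi, and EIF2AK3 29.2, 29.9 and 29 CPM in DMSO and 30.2, 31.5 and 31.1 CPM in PARGi. For both kinases PARGi lay above DMSO without passing (log2 fold change 0.081, SE 0.045 and 0.076, SE 0.036). CREB3L2, an ATF6-like factor released by cleavage that acts on secretory genes, had overlapping groups at 40.5 ± 2.78 and 39.2 ± 1.10 CPM (SD, n = 3 each).

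Levels of different genes were compared per kilobase of exon (CPM divided by the length of GENCODE 29 exons in kilobases). On that scale the 38 genes spanned a wide range in DMSO. CALR led with 493 ± 11.7, followed by HSP90B1 (203 ± 2.48) and HSPA5 (179 ± 3.01), and next came P4HB (169 ± 1.58) and PDIA6 (160 ± 1.98). These are the lumenal chaperones and isomerases that make up much of the ER's protein. At the other end stood ERO1B (1.36 ± 0.106) and DERL3 (0.0134 ± 0.00685). TXNDC5 (0.338 ± 0.0497) was also low, but because of its shared exons that value cannot be read as its level. The sensors ERN1 (1.52 ± 0.0499) and EIF2AK3 (5.40 ± 0.0832) were scarce, and XBP1 (27.6 ± 0.289) exceeded ATF6 (10.3 ± 0.160). HERPUD1 (18.0 ± 0.261) and MANF (35.9 ± 2.11) took middle places, so the largest called changes were not those of the most abundant genes. All values are means with SD over 3 libraries.

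**Figure D2:**
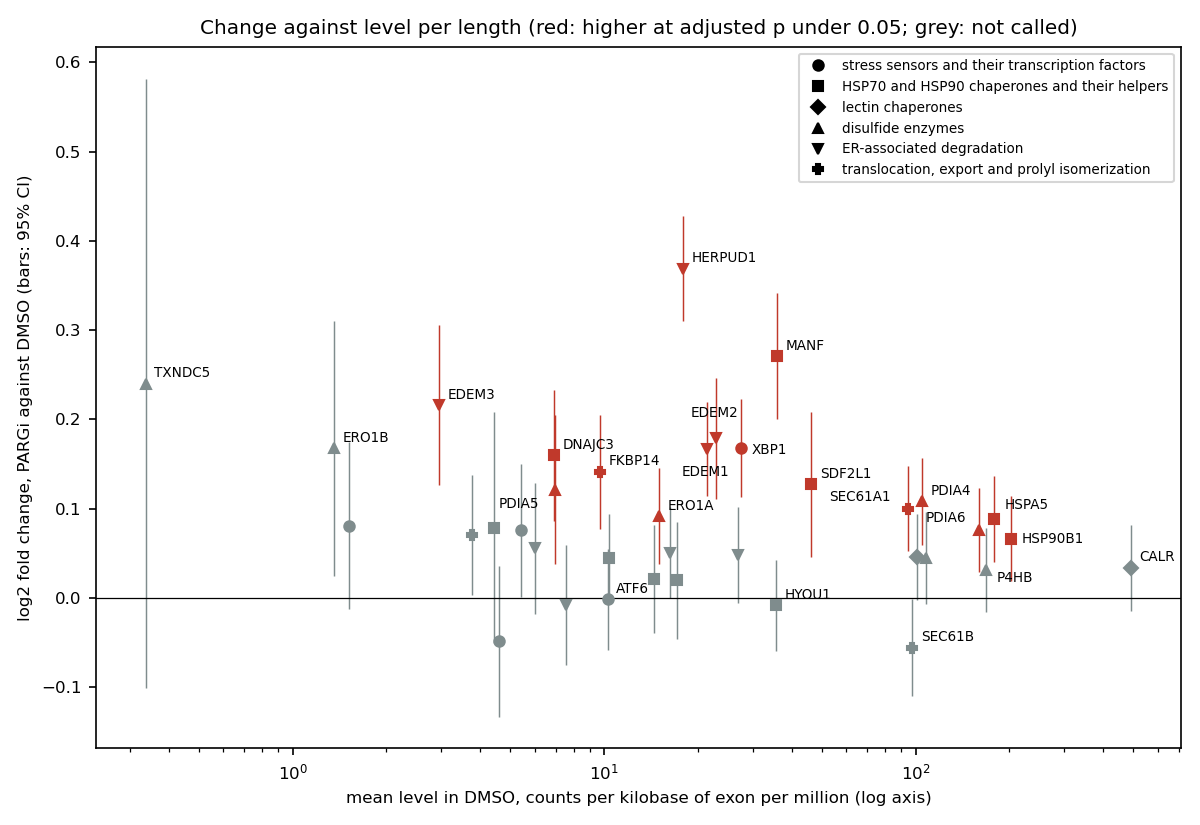
The x axis is the mean DMSO level per kilobase of exon (log axis) and the y axis the log2 fold change with its 95% confidence interval, for the 37 tested ER genes; marker shape gives the role and red marks the 16 genes called higher. HERPUD1 (0.37) and MANF (0.27) stand highest among the called genes, while the abundant CALR, P4HB, HSPA5 and HSP90B1 lie between 0.031 and 0.088.

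Many ER chaperone genes are known to carry ER stress response elements, at which ATF6 or XBP1 acts together with the factor NF-Y. The element ERSE is CCAAT, the site of NF-Y, followed by any 9 bases and by CCACG, the site of ATF6 or XBP1. ERSE-II is ATTGG, any 1 base and CCACG. Both strands were searched in RefSeq promoter windows (GRCh38.p14) from 250 bases before to 50 bases after an annotated start. No window of an ER gene held both elements. ERSE occurs in 0.0769% and ERSE-II in 0.0541% of all 35116 windows. Of the ER genes 33 had a window, and 8 of them held ERSE and 3 held ERSE-II. Some GENCODE transcripts of these genes start further upstream than the RefSeq start. These are the textbook sites of the response, and their presence says nothing about binding in these cells. The stretches that hold them are shown from the gene's own strand, 5′ to 3′, with the outer 5 bases at each end of an element in capitals and 10 bases or fewer around it; CGTGG and ATTGG are CCACG and CCAAT read from the other strand.
HERPUD1, ERSE-II, chr16:56932015-56932045, plus strand: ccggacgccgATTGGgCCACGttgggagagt
XBP1, ERSE, chr22:28800593-28800631, minus strand: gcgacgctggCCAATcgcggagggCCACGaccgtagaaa
SDF2L1, ERSE-II, chr22:21642104-21642134, plus strand: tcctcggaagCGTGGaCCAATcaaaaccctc
HSPA5, ERSE, chr9:125241381-125241419, minus strand: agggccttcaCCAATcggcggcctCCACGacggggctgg
PDIA6, ERSE, chr2:10812843-10812881, minus strand: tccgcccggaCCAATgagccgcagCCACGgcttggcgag
CALR, ERSE, chr19:12938374-12938412, plus strand: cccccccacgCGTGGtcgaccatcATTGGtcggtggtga
CANX, ERSE, chr5:179698768-179698806, plus strand: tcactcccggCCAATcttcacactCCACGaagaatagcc
CRELD2, ERSE, chr22:49918544-49918582, plus strand: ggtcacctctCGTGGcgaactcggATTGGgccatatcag
ERO1B, ERSE, chr1:236282173-236282208, minus strand: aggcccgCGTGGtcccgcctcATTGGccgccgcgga

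HSP90B1 and HYOU1 each held 2 elements in a single window, and the stretch from the first to the second is shown for each to give their spacing.
HSP90B1, 2 ERSE, chr12:103930206-103930349, plus strand: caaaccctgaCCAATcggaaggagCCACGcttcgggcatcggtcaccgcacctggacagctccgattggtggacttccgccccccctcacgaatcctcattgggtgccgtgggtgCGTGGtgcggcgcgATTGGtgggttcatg
HYOU1, 2 ERSE-II, chr11:119057264-119057400, minus strand: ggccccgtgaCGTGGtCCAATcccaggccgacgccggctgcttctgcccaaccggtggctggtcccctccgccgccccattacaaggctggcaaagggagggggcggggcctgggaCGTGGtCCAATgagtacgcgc

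Genes with an element ran from no detectable change to the largest rise. HERPUD1, with ERSE-II, had the largest rise, and HYOU1, with 2 copies of the same element, had a log2 fold change of -0.0086. Of the 11 genes with either element 6 were higher (HERPUD1, XBP1, SDF2L1, HSPA5, PDIA6 and HSP90B1) with a median of 0.076, and of the 22 genes with a window but neither element 9 were higher with a median of 0.080. MANF, the EDEM genes, DNAJC3, PDIA4 and SEC61A1 belong to the latter. The share called higher was 13.2% over all tested genes and 22.1% over those with at least 10 CPM. Sites outside the windows were not searched, and only exact matches to ERSE and ERSE-II were counted. The single parts of ERSE are common: CCACG occurs in 38.1% and CCAAT in 34.6% of all windows, wherever they stand.

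**Figure D3:**
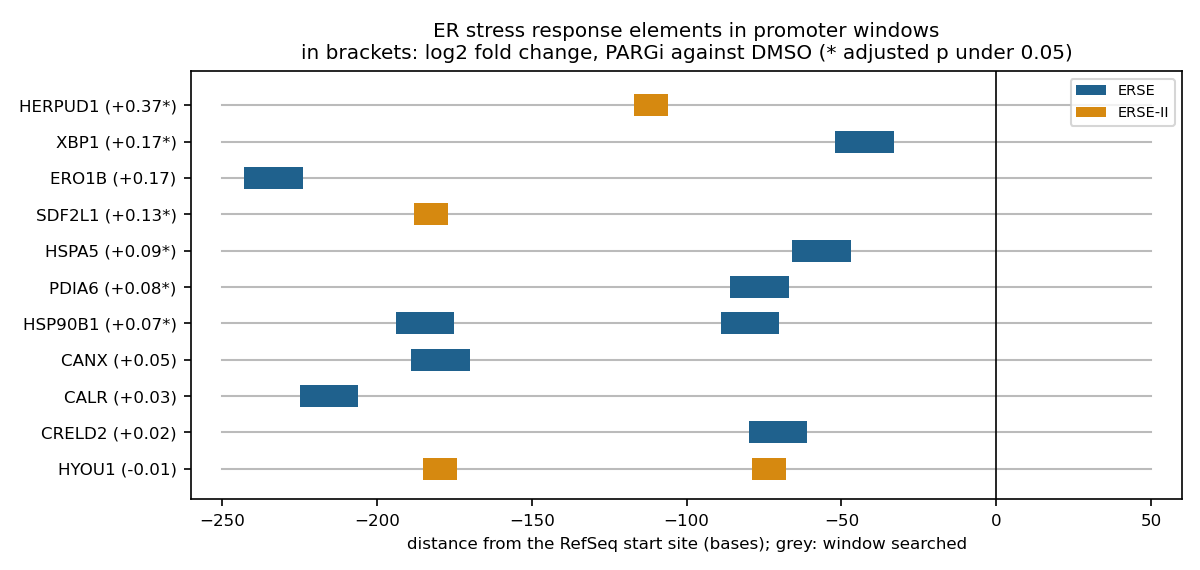
Each row is the promoter window of an ER gene with an element, with distance from the RefSeq start site on the x axis; blue bars are ERSE, orange bars ERSE-II, and the bracket gives the log2 fold change with a star where the adjusted p is under 0.05. HERPUD1 (ERSE-II) stands at the top and HYOU1, with 2 ERSE-II, at the bottom, and every match lies before the start site.

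Neighbouring steps of the secretory pathway were examined through 11 lists of other genes, 146 in all. Of their 143 tested members, 18.2% were called higher and 6.29% lower, against 13.2% and 11.0% of all tested genes. Most of these members were abundant, and of all tested genes with at least 10 CPM 22.1% were higher and 13.6% lower. The glucosidases, glucosyltransferases and receptors of the calnexin cycle had the highest share among the 11 lists, with 5 of 9 tested genes higher, 0 lower and a median log2 fold change of 0.076. UGGT2, MOGS and MCFD2 were also called there, but passed in only 5, 7 and 10 of 16 alternatives. The smallest p-values of that list were those of CLGN, a calnexin relative (10.5 ± 0.236 to 13.3 ± 0.802 CPM, log2 fold change 0.34, edgeR adjusted p = 5.90e-05), and UGGT1, the folding sensor that puts glucose back on unfolded glycoproteins (196 ± 1.83 to 214 ± 2.99 CPM, 0.13, edgeR adjusted p = 0.000339). Other degradation factors had 3 of 20 higher and 0 lower, among the former NGLY1, which strips sugar chains in the cytosol (41.3 ± 0.494 to 45.3 ± 0.976 CPM, log2 fold change 0.13).

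For import, glycosylation and export the shares called higher were 15%, 8.33% and 17.65%. These compare with 13.2% of all tested genes and lie below the 22.1% of those with at least 10 CPM. Few genes of these lists were called lower, against 11.0% and 13.6%. The translocon and signal peptidase list had 3 of 20 higher and 1 lower, and its smallest p-values were those of SRPRB, a subunit of the signal recognition particle receptor (46.8 ± 0.378 to 54.2 ± 1.14 CPM, log2 fold change 0.21), and SEC61A2 (39.3 ± 0.818 to 44.1 ± 1.17 CPM, 0.17). The oligosaccharyl transferase had 1 of 12 higher (OSTC, 0.096) and 0 lower, with a median of 0.010. OSTC lost its call without PARGi replicate 3 (0.079). The COPII list had 3 of 17 higher and 0 lower, led by the coat subunit SEC23B (51.2 ± 1.54 to 57.9 ± 1.12 CPM, 0.18) and the coat GTPase SAR1B (34.8 ± 0.944 to 38.3 ± 0.675 CPM, 0.14). The other coat gene called higher, SEC24A, passed in only 8 of 16 alternatives. Medians of these 3 lists lay between 0.010 and 0.026, and with upper-quartile scaling those of the translocon list (-0.0012) and the oligosaccharyl transferase list (-0.015) fell below 0. That scaling also moved the median of all tested genes, from -0.007 to -0.0315, and both lists stayed above it.

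Of 13 genes in the arm of the response that runs through PERK and ATF4, 2 were higher and 2 lower, with a median of 0.029. Each count is 15.4% of the list. All tested genes gave 13.2% and 11.0%, and those with at least 10 CPM 22.1% and 13.6%. SESN2 (24.1 ± 0.15 to 30.9 ± 1.64 CPM, log2 fold change 0.36, edgeR adjusted p = 5.15e-07) and ATF3 (7.47 ± 0.169 to 9.71 ± 0.566 CPM, 0.37, edgeR adjusted p = 9.10e-05) were the higher ones, and both are also known as p53-responsive genes. DDIT3, which encodes CHOP, the factor tied to death under lasting ER stress, was lower: it went from 6.79 ± 0.0859 to 5.71 ± 0.402 CPM (edgeR log2 fold change -0.25 with an SE of 0.072, adjusted p = 0.0113). It lost its call with the GC and length offset (-0.19, edgeR adjusted p = 0.0503), with that offset and the replicate block (-0.19), and without PARGi replicate 3 (-0.19, edgeR adjusted p = 0.0950). The other gene called lower was ASNS, counted at only 1.33 ± 0.0195 and 0.918 ± 0.204 CPM (log2 fold change -0.51), and it passed in only 10 of 16 alternatives. Exon overlaps were examined for the 38 genes alone, so the count of ASNS may not be its level. ASNS lost its call without DMSO replicate 1 (-0.50), 2 (-0.50) or 3 (-0.52) and without PARGi replicate 1 (-0.35) or 2 (-0.57). ATF4 (0.037, SE 0.024), TRIB3 (0.045, SE 0.044), CHAC1 (-0.095, SE 0.098) and PPP1R15A (0.018, SE 0.034) did not pass. Whether this list differs from the 38 genes was not tested.

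Relatives and regulators of the sensors had 1 of 13 higher (CREB3, 75.9 ± 2.02 to 82.2 ± 0.990 CPM, log2 fold change 0.11) and 1 lower (ATF6B, the paralogue of ATF6, 98.1 ± 2.62 to 92.3 ± 2.63 CPM, -0.089), with a median of -0.031. ATF6B lost its call without DMSO replicate 1 (-0.073), PARGi replicate 1 (-0.090) or PARGi replicate 3 (-0.067). The other thioredoxin-fold and redox enzymes had 2 of 14 higher (TMX3, 0.13, and QSOX1, 0.093) and 1 lower (GPX7, -0.24). QSOX1 lost its call without DMSO replicate 1 (0.083) or 2 (0.069) and without PARGi replicate 1 (0.093), 2 (0.091) or 3 (0.096), and GPX7 lost its call without DMSO replicate 2 (-0.23) or 3 (-0.23) or PARGi replicate 2 (-0.22). Of 7 further ER prolyl isomerases FKBP9 was higher (0.094) and FKBP10, which acts on collagen as FKBP14 does, was lower (193 ± 2.27 to 178 ± 3.83 CPM, -0.12). FKBP9 lost its call without PARGi replicate 3 (0.086). Of 6 ER-phagy receptors TEX264 was higher (0.24) and CALCOCO1 lower (-0.19). Calcium handling genes had 4 of 12 higher and 2 lower, and RCN2, a calcium-binding lumenal protein (117 ± 2.79 to 127 ± 1.02 CPM, 0.12), and the calcium channel gene ITPR2 (23.2 ± 1.18 to 20.2 ± 0.247 CPM, -0.19) had the smallest p-values. ITPR1, also called higher (0.19), passed in all 16 alternatives. CALU and RCN1, also called higher, passed in only 8 and 6 of 16 alternatives. CALU lost its call without DMSO replicate 1 (0.072) or 3 (0.062) and PARGi replicate 2 (0.074) or 3 (0.068), and RCN1 without DMSO replicate 1 (0.068) or 3 (0.063) and each PARGi replicate in turn (0.082, 0.074 and 0.068). ITPR3, the other gene called lower, lost its call without PARGi replicate 3 (-0.090). The counts of these lists stand beside 13.2% higher and 11.0% lower over all tested genes. Among those with at least 10 CPM the shares were 22.1% and 13.6%. Values with ± are means with SD over 3 libraries, DMSO first.

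**Figure D4:**
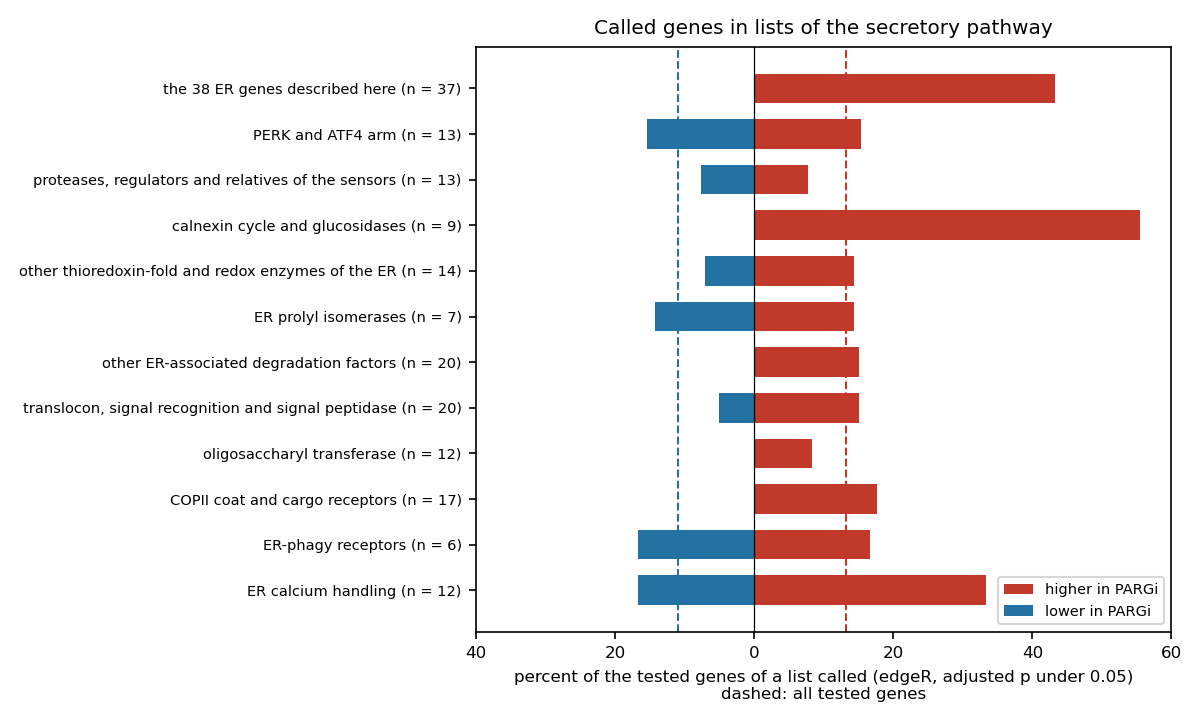
Bars give the percentage of the tested genes of each list called higher (red, to the right) or lower (blue, to the left) in PARGi by edgeR at an adjusted p under 0.05, with the number tested in brackets; dashed lines are the shares over all tested genes, 13.2% and 11.0%. The 38 ER genes (43.2% of those tested) and the calnexin cycle list (55.6%) reach furthest right with no bar to the left, while the PERK and ATF4 list has bars of equal length on both sides. No line marks the shares among genes with at least 10 CPM, 22.1% higher and 13.6% lower.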

How the data were processed

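Each deposited file held raw whole-number counts per gene for 1 library, with 1 count column; per the submitters' processing notes cutadapt 1.18, STAR 2.7.3a and SAMtools 1.9 were among the tools and hg38 was the build. The column kept from the aligner's output, the annotation release and the handling of shared reads are not given in the sources used here. Libraries were made with a strand-specific total RNA kit, per the labels' protocols. Groups and replicate numbers came from the sample titles.

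Counts were tested with edgeR 4.0.16 in R 4.3.3 (filterByExpr, TMM scaling, glmQLFit, two-sided glmQLFTest on treatment, all 6 libraries, adjusted p threshold 0.05); the SE is the absolute log2 fold change over the square root of F. Identifiers were matched to symbols with a gene name table, to positions and exon lengths with GENCODE 29, and to promoter windows with RefSeq. Members, lists and tests were chosen with earlier results of these data known. Named genes are all members, PARG, the 2 called genes with the smallest p of each further list, and ATF4, DDIT3, TRIB3, CHAC1 and PPP1R15A. One gene that this rule names is not reported here. Outside this rule, the further called genes UGGT2, MOGS, MCFD2, SEC24A, ASNS, ITPR1, CALU, RCN1 and ITPR3 are named as well. Genes that overlap a member were added after their values were seen. Alternatives were DESeq2 1.42.0, limma-voom (limma 3.58.1), 2 scalings, 2 filters, robust dispersions, a replicate block, a GC and length offset (loess span 0.3), both together, and each library left out. Scripts were tested on simulated counts. Figures were drawn with matplotlib 3.10.9. Depth ran from 60286931 to 80605145 counts.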

Additional observations from a re-analysis of the deposited data

How the results depend on the processing

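Of the 16 genes called higher, 10 passed in all 16 alternatives, and none changed sign. The number of genes called higher ran from 11 (upper-quartile scaling, where 9.81% of all tested genes were higher and 14.4% lower, so 40.5% of calls were higher against 54.5%) to 16, and was 2 with a minimum of 1.2-fold. The number called lower was 0, except 1, SEC61B, with upper-quartile scaling and without DMSO replicate 3 (0 to 1 over the fits without a library). The median log2 fold change of the tested ER genes was 0.051 with upper-quartile scaling, 0.058 with the GC and length offset and 0.058 with that offset and the block. Over all tested genes the medians in these settings were -0.0315, -0.015 and -0.0148, against -0.007 in the main fit. Calls over all genes came to 3117 at an adjusted p under 0.01 and 1688 with a minimum of 1.2-fold. DESeq2 called 3834 of 15981 genes. Same-numbered libraries did not deviate together (r from -0.025 to 0.0016), so the numbers were not taken as pairs; with the replicate block 15 of the genes were higher, 4553 genes were called in all, and HSP90B1 lost its call. Sign changes touched 8 uncalled genes: ATF6 (0.0017 with DESeq2, 0.0030 without a filter, -0.016 to 0.011 over the fits without a library), CREB3L2 (-0.081 to 0.0087 over those fits), HYOU1 (-0.021 to 0.0039), DNAJB11 (-0.0037 with upper-quartile scaling, -0.016 with the offset, -0.015 with offset and block, -0.0039 to 0.041 without a library), CRELD2 (-0.0050 with upper-quartile scaling, -0.0084 to 0.050 without a library), P4HB (-0.0030 with the offset, -0.0030 with offset and block), SYVN1 (-0.021 to 0.0083 without a library) and SEC61B (0.0034 with the offset, 0.0035 with offset and block). The causes were not tested. Among the calls on changes of a few percent, HSPA5 (0.088) passed in 15 of 16 alternatives and HSP90B1 (0.066) in 7. The smallest change that this spread and depth can show was not computed.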

Other observations

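ERSE or ERSE-II also stands in the windows of 33 genes or loci outside the 38, found by sequence alone, and 21 of them were tested. Of these 3 were higher and 4 lower, with a median log2 fold change of -0.013. Over all tested genes 13.2% were higher and 11.0% lower. SERP1, which stabilises membrane proteins during import into the ER, was higher (71.8 to 77.3 CPM, edgeR log2 fold change 0.10 with an SE of 0.033, adjusted p = 0.0214). FICD, the enzyme that switches BiP off and on by AMPylation, did not pass (0.030, SE 0.085), and neither did ALG12, a mannosyltransferase of sugar chain synthesis that lies beside CRELD2 (-0.011, SE 0.041). NUCB1, a calcium-binding Golgi protein with ERSE-II, was lower (284 to 270 CPM, -0.075, SE 0.027, edgeR adjusted p = 0.0464). These genes were named after their values were seen.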
